A study of Homo sapiens with 4 samples.

Results

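The genes described here are the collagen chains (COL followed by a digit), the laminin chains (LAMA, LAMB and LAMC) and the ADAM and ADAMTS metalloproteinases. The set is defined by symbol and was chosen with earlier results of these data known. It holds 95 of the 20037 protein-coding genes annotated on chromosomes 1 to 22, X and Y. These are 44 collagen, 12 laminin, 20 ADAM and 19 ADAMTS genes. The mark studied, lactylation of histone H4 at lysine 5 (H4K5la), was mapped by ChIP-seq in the human neuroblastoma line SH-SY5Y. One genotype was wild type (WT) and the other, DNAJC12KO, lacked the co-chaperone gene DNAJC12, and the labels do not state whether the knockout cells were 1 clone. For each genotype an immunoprecipitated and an input library were sequenced, 1 of each, and 1 list of broad peaks per genotype was used. The WT list held 1937 peaks and the DNAJC12KO list 2743 on these chromosomes. With 1 library per genotype there was no replicate error, and no test between genotypes was made. Read depth is unknown, so a place without a peak was one where none passed the authors' threshold.

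Collagens are triple helices that give tissues tensile strength, either as fibrils or as the sheet under epithelia and around nerves and vessels. Laminins are cross-shaped trimers of an alpha, a beta and a gamma chain that start the assembly of that sheet, the basement membrane, and guide growing axons. ADAM proteins are membrane-anchored and many shed the outer part of other membrane proteins, whereas ADAMTS enzymes are secreted and process procollagens, proteoglycans and von Willebrand factor. Histone lactylation uses lactate as its source and, like acetylation of the same lysine, is mostly described at active promoters and enhancers.

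Peaks were assigned to a gene if they reached its annotated record or the 3 kb on either side by at least 1 bp. In the WT list 13 of the 95 genes carried a peak (13.7%, exact binomial 95% interval 7.49 to 22.3%), against 6.46% of all protein-coding genes. The DNAJC12KO list had 14 (14.7%, interval 8.30 to 23.5%), against 8.23% of all. Gene length gave expected counts of 7.02 (WT) and 9.05 (DNAJC12KO), obtained by giving each gene the share with a peak among all protein-coding genes of its length class. ADAM8, ADAMTS14, COL1A1, COL5A1, COL20A1 and LAMA5, 6 genes, carried a peak in both (background 2.92%, expected from length 3.61). In the WT list alone were 7 genes (background 3.54%), ADAM15, ADAMTS17, COL2A1, COL6A1, COL6A3, COL9A3 and LAMB1. In the DNAJC12KO list alone were 8 (background 5.31%), ADAM11, ADAM33, ADAMTS13, COL11A2, COL18A1, COL6A2, LAMB2 and LAMC3. With the DNAJC12KO list cut to the length of the WT list, its count was 8 of 95, where 6.30% of all genes were called and 6.89 members were expected. Intervals cover counting error only and take genes as independent, although some of these genes are neighbours. Since the set was chosen with earlier results of these data known, the intervals are no test of an excess over all genes.

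**Figure D1:**
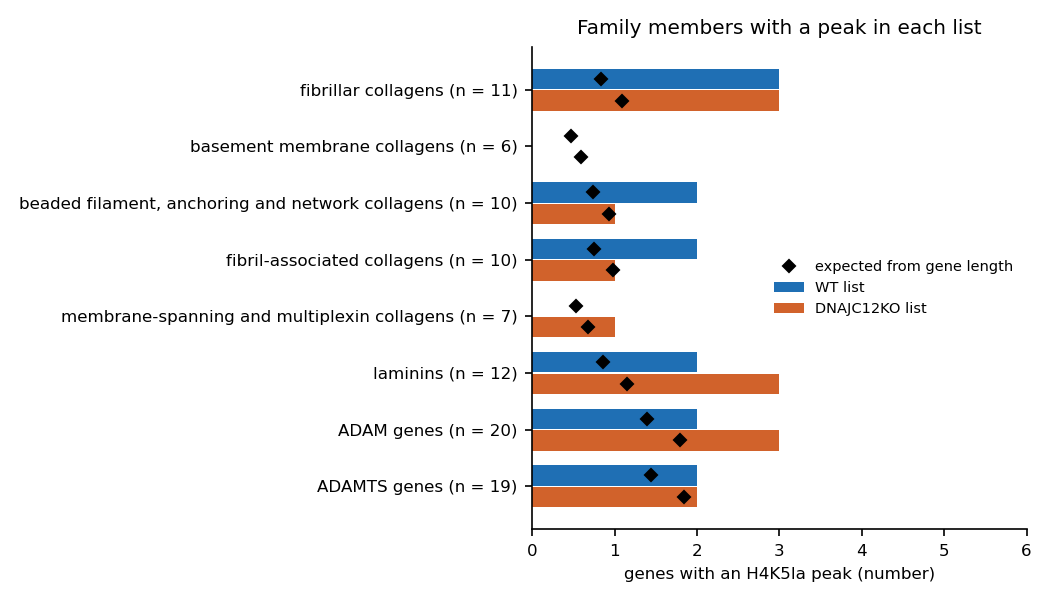
Number of genes with an H4K5la peak (horizontal axis) in each family (vertical axis, n is the family size), with bars for the WT list and the DNAJC12KO list and diamonds for the number expected from gene length. Fibrillar collagens reached 3 of 11 genes in each list, basement membrane collagens (COL4A1 to COL4A6 only) 0 of 6.

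The fibrillar collagens, which form the banded fibres of skin, bone, tendon and cartilage, had 3 of 11 genes with a peak in each list (expected 0.831 in WT and 1.09 in DNAJC12KO). COL1A1, the major chain of type I collagen (chromosome 17, 50184101 to 50201631, 17.5 kb), carried 1 peak in each list at separate places inside the gene. Its WT peak was 812 bp wide at 50186065 to 50186876, with a fold enrichment of 3.94 over background and a -log10 q of 1.81. The DNAJC12KO peak was 412 bp wide at 50191971 to 50192382, with a fold of 3.22 and a -log10 q of 1.10, rank 2726 of the 2743 peaks of that list. A stretch of 5.09 kb without a peak separated them. The WT peak at COL1A1 ranked 358 of 1937 by -log10 q. These ranks belong to peaks at different places, in lists of different length, and do not compare the genotypes.

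COL5A1, whose chain sets the diameter of type I fibrils, is much longer (chromosome 9, 134641803 to 134844843, 203 kb) and again had 1 peak in each list. The WT peak at 134814667 to 134815039 had a fold of 4.37 and a -log10 q of 1.91, and the DNAJC12KO peak at 134819661 to 134820096 had 3.43 and 1.23. They lay 4.62 kb apart, at 85.2% and 87.7% of the way from the start of the gene, and the DNAJC12KO peak also lay over the lncRNA record LOC101448202. COL2A1, the cartilage collagen, carried a peak in the WT list alone (chromosome 12, 47975363 to 47975714, fold 3.69, -log10 q 1.37). COL11A2, a minor cartilage fibril chain on chromosome 6, carried 1 in the DNAJC12KO list alone (33175254 to 33175594, fold 3.79, -log10 q 1.45). No peak was called in either list at COL1A2, the partner chain of COL1A1 in type I collagen, nor at COL3A1, COL5A2, COL5A3, COL11A1, COL24A1 and COL27A1.

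None of the 6 basement membrane collagen genes, COL4A1 to COL4A6, had a peak in either list (expected 0.472 and 0.592). COL4A1 and COL4A2 lie head to head on chromosome 13, where the WT list had 13 peaks and the DNAJC12KO list 0. The nearest WT peak lay 1810 kb from COL4A1 and 1604 kb from COL4A2.

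Type VI collagen, which forms beaded filaments around cells, supplied every peak of the beaded filament, anchoring and network collagens, of which 2 of 10 genes had a WT peak and 1 of 10 a DNAJC12KO peak (expected 0.740 and 0.934). Its 3 main chains were divided between the lists. COL6A1 (chromosome 21, 45983948 to 45984381, fold 3.82, -log10 q 1.32) and COL6A3 (chromosome 2, 237371938 to 237372523, fold 3.97, -log10 q 1.50) had a WT peak. COL6A2 had 2 DNAJC12KO peaks, at 46117266 to 46117654 (fold 3.97, -log10 q 1.72) and at 46118907 to 46119856 (fold 3.72, -log10 q 1.42). COL6A1 and COL6A2 are neighbours, 93.1 kb apart, so these peaks of different lists fell within the same gene cluster. The nearest WT peak to those at COL6A2 was 94.7 kb away. COL6A5, COL6A6, COL7A1, COL8A1, COL8A2, COL10A1 and COL28A1 had no peak.

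Among the fibril-associated collagens, which coat fibrils and link them to other molecules, 2 of 10 genes had a WT peak and 1 a DNAJC12KO peak (expected 0.751 and 0.985). COL20A1 (chromosome 20, 63293186 to 63334806, 41.6 kb) was the gene at which the lists coincided. Its WT peak at 63329679 to 63330116 had a fold of 4.68 and a -log10 q of 2.29, the highest of all peaks at these genes in that list (rank 80 of 1937). Its DNAJC12KO peak at 63329857 to 63330661 had 3.58 and 1.37 (rank 1871 of 2743). The shared stretch was 260 bp. No other peak at the 95 genes overlapped a peak of the other list, which makes 1 of 18 peaks in each list (5.56%). Over the whole lists 8.88% of WT peaks and 6.31% of DNAJC12KO peaks did so. COL9A3, a chain of the cartilage collagen type IX, had the widest peak of the set, 1049 bp, in the WT list alone (62826205 to 62827253, fold 3.75). COL9A1, COL9A2, COL12A1, COL14A1, COL16A1, COL19A1, COL21A1 and COL22A1 had none.

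Of the 7 genes grouped here as membrane-spanning and multiplexin collagens, COL18A1 alone carried peaks, in the DNAJC12KO list (expected 0.525 genes in WT and 0.678 in DNAJC12KO). COL18A1 encodes a basement membrane collagen from which the fragment endostatin is cut (chromosome 21, 45405165 to 45513720, 109 kb). It was counted here and not with COL4A1 to COL4A6. The weaker of its peaks lay at 45493515 to 45494032 (fold 3.67, -log10 q 1.41). The other lay at 45504148 to 45504645 (fold 4.10, -log10 q 1.82), where the record of the folate carrier gene SLC19A1 overlaps, so that peak cannot be given to COL18A1 alone. COL13A1, COL15A1, COL17A1, COL23A1, COL25A1 and COL26A1 had no peak. COL13A1 was the gene just outside the 3 kb limit in the DNAJC12KO list, with a peak 4.97 kb away.

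**Figure D2:**
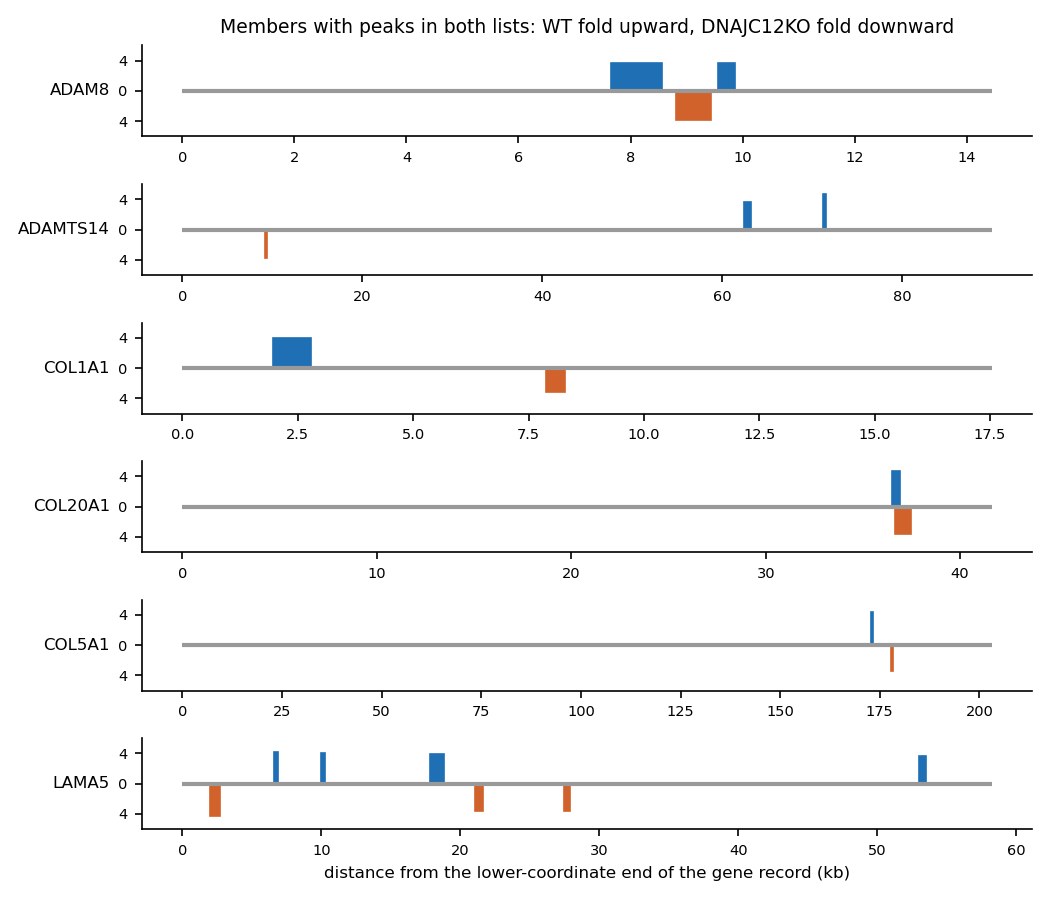
The 6 genes with a peak in both lists, each drawn to its own scale as distance in kb from the lower-coordinate end of its record, with WT peaks above the line and DNAJC12KO peaks below it and the height of a box giving the fold. Only the peaks at COL20A1 overlap, while those at ADAMTS14 lie at least 53.0 kb apart.

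Laminin genes had 2 of 12 members with a WT peak and 3 with a DNAJC12KO peak (expected 0.859 and 1.14). LAMA5, the alpha chain of the laminins found in most adult basement membranes, carried the most peaks of all 95 genes (chromosome 20, 62309065 to 62367312, 58.2 kb, transcribed towards lower coordinates). The 4 WT peaks lay at 62315683 to 62315961 (fold 4.21), 62319031 to 62319338 (fold 4.03), 62326913 to 62327889 (fold 3.88) and 62362109 to 62362570 (fold 3.66). Their -log10 q was 1.79, 1.52, 1.44 and 1.42 in that order. The 3 DNAJC12KO peaks lay at 62311021 to 62311767 (fold 4.34), 62330105 to 62330686 (fold 3.62) and 62336541 to 62336940 (fold 3.61), with a -log10 q of 2.07, 1.38 and 1.28. All but 1 of these 7 peaks fell beyond the midpoint of the gene, and none overlapped a peak of the other list, the closest pair being 2.22 kb apart. The DNAJC12KO peak with the highest fold, also the one with the highest -log10 q (2.07) of the 18 in its list, lay near the far end of LAMA5 and within 3 kb of the neighbouring proteasome receptor gene ADRM1.

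The beta and gamma chains had 1 peak each or none. LAMB1, a widely expressed beta chain, had a WT peak on chromosome 7 (107956534 to 107956812, fold 4.32, -log10 q 2.21, rank 103 of 1937), and the nearest DNAJC12KO peak was 1994 kb away. The LAMB1 peak was 279 bp wide, the lowest width among WT peaks at protein-coding genes and one that many peaks shared. LAMB2, the beta chain of the neuromuscular synapse and the kidney filter, had a DNAJC12KO peak on chromosome 3 (49129825 to 49130183, fold 3.60, -log10 q 1.34). LAMC3, a gamma chain of retina and brain, had a DNAJC12KO peak on chromosome 9 (131082000 to 131082467, fold 3.55, -log10 q 1.28). The genes without a peak included LAMA1, LAMA2 and LAMA4, and LAMC1, the gamma chain that most laminin trimers contain.

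ADAM genes had 2 of 20 members with a WT peak and 3 with a DNAJC12KO peak (expected 1.40 and 1.79). ADAM8, a protease of leukocytes and of tumour cells, is short and had peaks in both lists packed within a stretch of the same gene (chromosome 10, 133262423 to 133276868, 14.4 kb). The WT peaks spanned 133270071 to 133270981 (fold 3.67, -log10 q 1.35) and 133271993 to 133272281 (fold 3.75, -log10 q 1.39). The DNAJC12KO peak at 133271238 to 133271867 (fold 3.82, -log10 q 1.67) sat in the gap between them, 256 bp from the former and 125 bp from the latter. ADAM8 thus shared no base between the lists although the peaks almost touched.

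The other ADAM peaks stood alone. ADAM15, an adhesion-related protease with an integrin-binding motif, had a WT peak of 885 bp on chromosome 1 (155056869 to 155057753, fold 3.65, -log10 q 1.57), which also lay over the lncRNA records DCST1-AS1 and ADAM15-EFNA4. ADAM11, a brain-expressed member without a working protease site, had a DNAJC12KO peak on chromosome 17 (44770094 to 44770655, fold 3.61, -log10 q 1.28). ADAM33, a gene linked to asthma, had a DNAJC12KO peak on chromosome 20 (3674262 to 3674819, fold 3.64, -log10 q 1.40). ADAM10 and ADAM17, the principal sheddases of Notch, amyloid precursor protein and tumour necrosis factor, had none. Neither did the synaptic genes ADAM22 and ADAM23, nor ADAM2, ADAM7, ADAM9, ADAM12, ADAM18, ADAM19, ADAM20, ADAM21, ADAM28, ADAM29, ADAM30 and ADAM32.

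ADAMTS genes had 2 of 19 members with a peak in each list (expected 1.44 and 1.84). ADAMTS14, a relative of the procollagen N-proteinase ADAMTS2 (chromosome 10, 70672506 to 70762441, 89.9 kb), was the gene with the peaks of the lists farthest apart. Its WT peaks lay at 70734884 to 70735666 (fold 3.58, -log10 q 1.23) and 70743704 to 70744070 (fold 4.63, -log10 q 2.21, rank 104 of 1937), 69.8% and 79.4% along the gene. Its DNAJC12KO peak lay at 70681638 to 70681930 (fold 3.71, -log10 q 1.49), 10.3% along it, so the gene counts as shared without any shared place. ADAMTS17, a gene of the eye and skeleton and the longest with a peak (371 kb), had a WT peak on chromosome 15 (100010398 to 100010812, fold 3.90, -log10 q 1.50). ADAMTS13, which cuts von Willebrand factor, had a DNAJC12KO peak on chromosome 9 (133443584 to 133443965, fold 3.53, -log10 q 1.30), and its nearest WT peak lay 5.60 kb outside the record. ADAMTS2 and the aggrecan-cleaving genes ADAMTS4 and ADAMTS5 had none, as was the case for ADAMTS1, ADAMTS3, ADAMTS6, ADAMTS7, ADAMTS8, ADAMTS9, ADAMTS10, ADAMTS12, ADAMTS15, ADAMTS16, ADAMTS18, ADAMTS19 and ADAMTS20.

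All 18 peaks of each list overlapped the gene record itself, so no gene was counted through the 3 kb margin. Over all protein-coding genes with a peak, 85.6% (WT) and 86.5% (DNAJC12KO) also had 1 in the record itself. Annotated starts were available from RefSeq (GRCh38.p14) for 65 of the 95 genes and 13 of the 21 with a peak, so that 13 of the 18 peaks of each list could be placed and 5 could not. None of these 13 overlapped a start or came within 1 kb of one. Over all protein-coding genes, 6.70% of WT and 5.43% of DNAJC12KO peak and gene pairs lay within 1 kb. At 3 kb the count was 0 of 13 WT and 2 of 13 DNAJC12KO pairs, and the share over all genes was 18.3% and 15.0%. The DNAJC12KO pairs included COL11A2, counted through an internal start. The median distance to the nearest start was 46.3 kb (WT) and 21.2 kb (DNAJC12KO), against 13.1 and 17.1 kb over all genes, which are mostly shorter. The centre lay beyond the midpoint of the gene for 9 of 13 WT and 10 of 13 DNAJC12KO pairs, with medians of 68.5% and 61.2% along the gene. Over all protein-coding genes 60.9% and 65.9% of pairs inside the record lay beyond the midpoint, so the position in the later part was common to the lists as a whole.

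**Figure D3:**
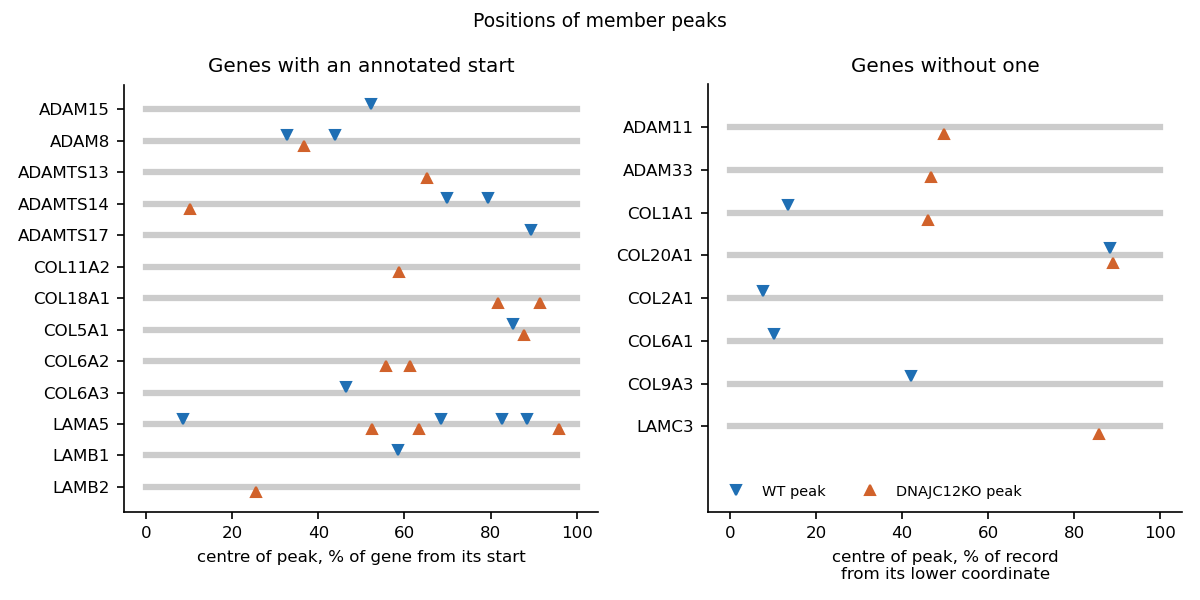
Centre of each peak as a percentage of the gene, measured from the start of transcription for the 13 genes with an annotated start (left) and from the lower-coordinate end of the record for the other 8 (right), with WT peaks pointing down and DNAJC12KO peaks pointing up. No marker in the left panel sits at the start, the lowest being the WT peak of LAMA5 at 8.54%.

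The peaks closest to an annotated start were those of COL11A2 (2.00 kb, DNAJC12KO), LAMB2 (2.87 kb, DNAJC12KO), ADAM8 (4.59 kb, WT) and LAMA5 (4.74 kb, WT). Each lay downstream of the start. That of COL11A2 is an internal start, and the centre of its peak lay 58.7% along the gene. Only the 13 genes with a peak and an annotated start could be ranked. The WT peaks at COL1A1, COL6A1 and COL2A1, genes without one, lay 1.96, 2.18 and 2.40 kb from a record end. Which end is their start was not known, so nearer peaks may be missing from the ranking. The 250 bases before the starts of COL11A2, LAMB2, ADAM8 and LAMA5 are printed below. Among the ranked genes they are the windows before a start that lie nearest to a peak, without holding one. They are read 5′ to 3′ along the gene from RefSeq (GRCh38.p14), with every match to the GC box GGGCGG, or to CCGCCC for the other strand, in capitals. All 4 genes are on the minus strand. The COL11A2 window is chr6:33177593-33177842, before an internal start of the gene, and those of LAMB2, ADAM8 and LAMA5 are chr3:49133051-49133300, chr10:133276869-133277118 and chr20:62367313-62367562.
COL11A2: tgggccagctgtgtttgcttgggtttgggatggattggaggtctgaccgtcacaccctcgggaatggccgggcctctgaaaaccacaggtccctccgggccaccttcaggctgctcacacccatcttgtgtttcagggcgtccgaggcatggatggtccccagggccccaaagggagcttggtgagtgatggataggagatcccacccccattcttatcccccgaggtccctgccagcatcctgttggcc
LAMB2: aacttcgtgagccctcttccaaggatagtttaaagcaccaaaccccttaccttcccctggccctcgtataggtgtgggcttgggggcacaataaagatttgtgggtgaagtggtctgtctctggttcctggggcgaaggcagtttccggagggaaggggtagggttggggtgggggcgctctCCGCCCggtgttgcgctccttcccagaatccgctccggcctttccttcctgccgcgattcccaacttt
ADAM8: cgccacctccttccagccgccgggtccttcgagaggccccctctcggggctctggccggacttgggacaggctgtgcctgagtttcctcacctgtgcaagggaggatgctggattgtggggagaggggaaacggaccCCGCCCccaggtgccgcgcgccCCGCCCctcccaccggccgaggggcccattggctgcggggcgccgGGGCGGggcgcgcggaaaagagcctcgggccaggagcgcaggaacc
LAMA5: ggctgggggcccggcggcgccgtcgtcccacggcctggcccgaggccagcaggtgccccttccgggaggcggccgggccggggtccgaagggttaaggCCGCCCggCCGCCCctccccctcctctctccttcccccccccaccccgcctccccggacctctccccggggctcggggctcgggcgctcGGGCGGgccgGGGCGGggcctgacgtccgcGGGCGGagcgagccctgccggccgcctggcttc
The COL11A2 window held 0 GC boxes, that of LAMB2 1, that of ADAM8 3 and that of LAMA5 5. Their GC content was 61.2%, 58.4%, 73.6% and 82.8%, and they held 7, 12, 23 and 32 CpG dinucleotides. Among 22183 such windows of protein-coding genes 53.7% held at least 1 GC box, and the median GC content was 62%. Over the 18 windows of the 13 genes with a peak and an annotated start, 15 (83.3%) held 1 and the median GC content was 72%, against 62.5% and 64.6% for the 80 windows of all 65 collagen, laminin, ADAM and ADAMTS genes in the table. A match describes these letters and is not a binding site.

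Within their lists the peaks at these genes were ordinary in strength. The 18 WT peaks had a median fold of 3.89 (range 3.58 to 4.68) and a median -log10 q of 1.50, against 3.82 and 1.47 for the 1674 WT peaks at protein-coding genes. For the 18 DNAJC12KO peaks the median fold was 3.63 (range 3.22 to 4.34) and the median -log10 q 1.39, against 3.69 and 1.48 for 2220 peaks. The lowest -log10 q was 1.23 (WT) and 1.10 (DNAJC12KO) at these genes, and 1.03 and 1.01 at all protein-coding genes. A fold of at least 4 was reached by 6 WT peaks (33.3%, against 28.8% of those at protein-coding genes) and by 2 DNAJC12KO peaks (11.1%, against 16.9%). Peaks with a -log10 q of 2 or more were the WT peaks at COL20A1, LAMB1 and ADAMTS14 and the DNAJC12KO peak at the end of LAMA5. Median widths were 436 and 483 bp. Folds and q values are the authors' own and serve to rank peaks within a list, not to compare the libraries.

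**Figure D4:**
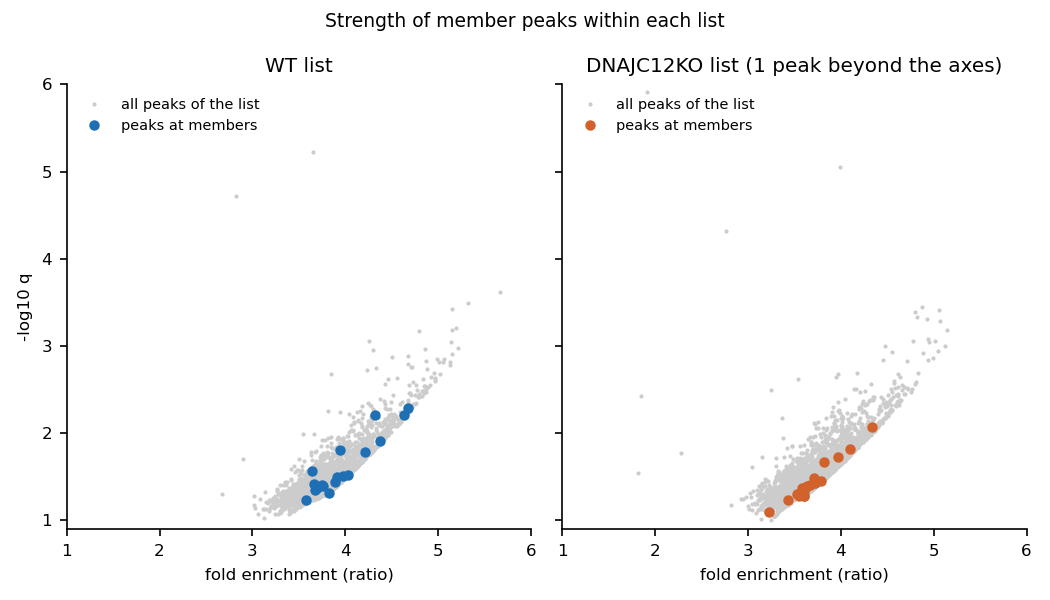
Fold enrichment (horizontal axis, linear ratio) against -log10 q (vertical axis) for every peak of each list (grey) and for the 18 peaks at the collagen, laminin, ADAM and ADAMTS genes (coloured). The coloured points run from a fold of 3.22 to 4.68 within the body of both clouds, and 1 DNAJC12KO peak that is not at these genes lies beyond the axes.

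Within the set, genes with a peak were mostly the shorter ones. The 21 genes with a peak in either list had a median length of 34.7 kb, and the 74 without had 152 kb. Protein-coding genes as a whole did not show this, with a median of 28.8 kb for those with a peak and 24.1 kb for all. Of the 21 genes up to 35.3 kb long, 11 carried a peak in either list (52.4%, against 10.9% of all protein-coding genes of that size). Of the 56 genes from 83.5 kb upwards, 6 did (10.7%, against 13.1%). Long genes with a peak were COL5A1, COL6A3, COL18A1, ADAMTS14, ADAMTS17 and LAMC3. Per length, the 95 genes had 0.126 peaks per 100 kb in each list, against 0.135 (WT) and 0.177 (DNAJC12KO) over all protein-coding genes.

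Many of the genes with a peak, though not all, lay in gene-rich or terminal chromosome stretches. Above the median gene density were 13 of the 21, and 9471 of all 20037 protein-coding genes lay there. Of all genes in those stretches 9.35% (WT) and 11.7% (DNAJC12KO) had a peak, against 3.87% and 5.14% of the others. Within 5 Mb of a chromosome's annotated end were 12 of the 21 (57.1%). The share was 34.4% for all protein-coding genes with a peak and 13.5% for all. The comparisons by gene density and by distance to the chromosome end, and the grouping of length classes above, were chosen after the values were seen. Within 500 kb the 21 genes had a median of 17 protein-coding neighbours, against 6 for the genes without a peak. The median was 12 for all protein-coding genes and 18 for all those with a peak. Of the 23 genes above the median gene density, 7 carried a WT peak and 10 a DNAJC12KO peak, and length within that part of the genome gave 2.77 and 3.56. Of the 72 at or below it, 6 and 4 did, and length gave 3.97 and 5.16. Length and gene density were tied, since the 23 genes in dense stretches had a median length of 30.8 kb and the other 72 one of 158 kb. Among genes up to 60 kb long, 12 of 19 in dense stretches and 2 of 15 in the others carried a peak in either list. Among longer genes, 1 of 4 and 6 of 57 did.

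Distance to the nearer end of the annotated chromosome differed as well. Of the 18 genes within 5 Mb of it, 12 carried a peak in either list (66.7%, against 30.0% of all protein-coding genes there), and of the 77 farther in, 9 did (11.7%, against 8.93%). The former included LAMA5, COL9A3 and COL20A1, which follow each other at the end of the long arm of chromosome 20. They also included COL18A1, COL6A1 and COL6A2 on chromosome 21, and ADAMTS13 and COL5A1 on chromosome 9. Counting neighbours within 2 Mb once, the 21 genes stood for 16 stretches.

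**Figure D5:**
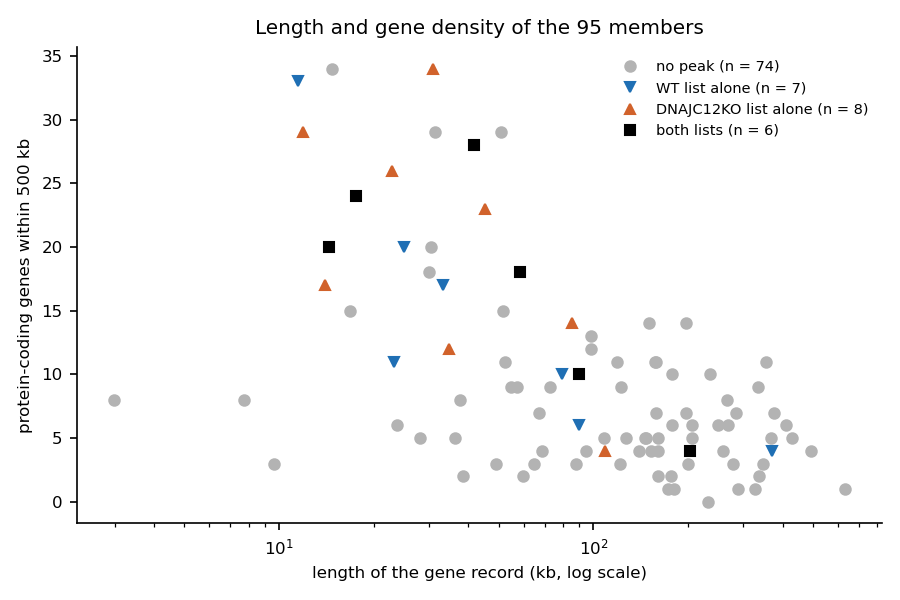
Length of each of the 95 gene records (horizontal axis, kb, log scale) against the number of protein-coding genes within 500 kb (vertical axis), with a marker for the list in which it carried a peak. Genes with a peak gather at the upper left, with medians of 34.7 kb and 17 neighbours, and most genes without one at the lower right.

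The other matrix genes, grouped by role, had 12 of 90 with a WT peak (13.3%, expected 6.29) and 13 with a DNAJC12KO peak (14.4%, expected 8.06). Over all protein-coding genes the shares were 6.46% and 8.23%. A peak in both lists was carried by 8 of the 90 (8.89%, against 2.92% of all genes, expected 2.97). PLOD3 among them lies on chromosome 7, and ITGA3, ITGB4 and TIMP2 lie on chromosome 17. On those chromosomes 23.2% and 24.1% of protein-coding genes had a peak in either list, against 11.8% of all. The counts of other matrix genes were not repeated without chromosomes 7 and 17. Of 26 genes that process collagen, 4 had a WT peak and 2 a DNAJC12KO peak (expected 1.83 and 2.35). The folds given for these genes are those of the peak with the highest -log10 q in each list. PLOD3, a lysyl hydroxylase of procollagen, had 2 in each list (fold 3.51 in WT and 3.91 in DNAJC12KO), and BMP1, the procollagen C-proteinase, 1 in each (4.18 and 3.79). The lysyl oxidase gene LOXL2 (3.78) had a WT peak only. The WT peak at BMP1 also lay within 3 kb of SFTPC, and that at LOXL2 within 3 kb of R3HCC1.

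Partners of collagen IV and laminin in the basement membrane had 3 of 9 genes with a WT peak and 2 with a DNAJC12KO peak (expected 0.657 and 0.878). These were AGRN, the proteoglycan that organises the neuromuscular synapse (fold 4.15 in WT and 3.75 in DNAJC12KO), HSPG2, which encodes perlecan (4.28 and 4.13), and in the WT list alone PXDN, the enzyme that crosslinks collagen IV (3.81). Receptors for the matrix had 2 of 18 and 5 of 18 (expected 1.29 and 1.67). The laminin receptor subunits ITGA3 (4.25 and 3.31) and ITGB4 (3.56 and 4.11) had peaks in both lists, and SDC1, a syndecan, had the receptor peak of the DNAJC12KO list with the highest -log10 q (fold 3.93, -log10 q 2.20).

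Matrix metalloproteinases, the other protease family of the matrix, had 0 of 25 genes with a WT peak and 2 with a DNAJC12KO peak, against 1.70 and 2.11 expected. The 2 were MMP15 (fold 5.12) and MMP9 (3.61). Inhibitors and ADAMTS-like genes had 3 of 12 and 2 of 12 (expected 0.813 and 1.06). TIMP2, an inhibitor of metalloproteinases, had a peak in each list (3.60 and 3.39), as did ADAMTSL4 (5.19 and 3.30), whose WT peak also lay within 3 kb of LOC124904417. ADAMTSL2 had WT peaks only (4.13).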

How the data were processed

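Per the labels, chromatin was immunoprecipitated with an H4K5la antibody. The submitters' processing notes name MACS2 (version 2.2.6) and hg38. Aligner, filters, calling options, control library and any use of spike-in chromatin were not given in the sources used here. The deposited broad peak lists, 1 per genotype and named in the sample descriptions of both its input and its immunoprecipitated library, give the authors' fold enrichment (a linear ratio) and -log10 p and q for each peak, averaged over the peak. There are no counts, so depth is unknown. Another depth, or another background, would change which peaks were called.

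Gene records and starts came from RefSeq tables of GRCh38.p14. Coordinates are 1-based. Alternatives tried were other windows, stricter thresholds, equal list lengths and leaving out chromosomes 7 and 17. On those chromosomes 23.2% and 24.1% of protein-coding genes had a peak in either list, against 11.8% of all. Of the collagen, laminin, ADAM and ADAMTS genes with a peak, LAMB1 lies on the former, and COL1A1 and ADAM11 lie on the latter. Expected counts used 10 length classes of equal size. In a simulation of 4000 genes, 300 of 300 planted genes were found. Each simulated peak was placed within the window of its gene, so the simulation checked the overlap count and not the detection of real peaks. Python 3.11.15, numpy 2.4.6, pandas 2.3.3, scipy 1.17.1 and matplotlib 3.10.9 were used. The genes and lists were chosen with earlier results of these data known. Every gene with a peak is named. Positions with fold and -log10 q are given for COL1A1, for genes in both lists, for those with 3 or more peaks and for the 6 with the highest -log10 q in each list, and also for most others. Of the other matrix genes, those in both lists and up to 3 per group are named. Of the 19 receptor symbols listed, GPR56 is an older name of ADGRG1.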

Additional observations from a re-analysis of the deposited data

How the results depend on the processing

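Counts of genes with a peak are given as WT, DNAJC12KO, both, WT alone and DNAJC12KO alone, in that order, and were 13, 14, 6, 7 and 8. They did not change without a window around the record or when the peak centre had to lie in the window, were within 1.5 times with a window of 10 kb and without chromosomes 7 and 17, and changed more under the other alternatives. Within 3 kb of either record end they were 3, 2, 0, 3 and 2, and the WT and DNAJC12KO shares of 3.16% and 2.11% stood against 3.18% and 3.85% of all protein-coding genes. With a -log10 q of at least 2 they were 3, 1, 0, 3 and 1 (3.16% and 1.05%, against 0.933% and 1.08% of all genes). Among peaks of fold 4 or more they were 5, 2, 1, 4 and 1 (5.26% and 2.11%, against 2.39% and 1.94%). With lists cut to equal length they were 13, 8, 4, 9 and 4, and the DNAJC12KO share of 8.42% stood against 6.30% of all genes. The WT count stayed at 13 because that list was the shorter one. COL1A1, COL5A1, ADAM11, ADAMTS13, LAMB2 and LAMC3 then had no DNAJC12KO peak. Under these alternatives shares over all genes were worked out for the WT and DNAJC12KO counts only. The counts in both lists and in 1 list alone thus have no background beside them. No paired analysis was possible because each genotype had 1 immunoprecipitated library.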

Other observations

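The DNAJC12KO list held no peak anywhere on chromosome 13 (0 of 2743 peaks), while the WT list held 13 of 1937 there. COL4A1 and COL4A2 are the collagen genes on that chromosome and had no peak in the WT list either.

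Of the 6 genes with a peak in both lists, 1 had overlapping peaks. Over all protein-coding genes with a peak in both lists, 132 of 585 (22.6%) did, so that most shared genes of the lists had their peaks at different places. The smallest distances at the other 5 were 125 bp (ADAM8), 2.22 kb (LAMA5), 4.62 kb (COL5A1), 5.09 kb (COL1A1) and 53.0 kb (ADAMTS14).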
